A study of Mus musculus with 20 samples.

Results

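Keratin-associated protein genes (Krtap genes) were taken as every gene symbol beginning with Krtap in both deposited count tables of a mouse phalanx series, 1 table per embryonic day. That rule found 38 of the 23988 genes that the tables share. A further 4 Krtap symbols were listed at E17 only and 1 at E16 only. Hair and nail plate are made of hard keratin filaments set in a matrix of keratin-associated proteins, which bind the filaments through disulphide bridges and stacked aromatic residues. The proteins are small and fall into high sulphur, ultrahigh sulphur and high glycine-tyrosine families. In the hair follicle their genes switch on late, after the first hard keratins, in cells about to harden, and in the digit their known site is the nail matrix at the tip.

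Messenger RNA was sequenced from phalanges, the bony segments of the digits, at embryonic day 17 (E17) and embryonic day 16 (E16). The sample titles do not mention skin, but epidermal transcripts were found in all 20 libraries, as given below. Tissue was pooled before sequencing, with 10 embryos behind a library at E17 and 20 embryos behind a library at E16. The labels give no strain, sex or treatment. In hindlimb and forelimb of each stage, digit 1 gave a distal and a proximal sample, and digit 2 gave a distal, a proximal and a middle sample. There was 1 library for each stage, limb and phalanx, 20 in all. Nothing was therefore replicated, and p-values rest on how well matched libraries agree. The labels do not say whether libraries of a stage share embryos, and stage cannot be told apart from the pool of embryos, the count table or the sequencing run.

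Total gene counts ranged from 75278309 to 111204552 per library at E17 and from 70871735 to 77361898 at E16. Levels are CPM, read counts relative to the library total, scaled by edgeR's TMM factors unless stated. Hard keratins, which mark nail and hair forming cells, marked the distal libraries: Krt84 averaged 3801 ± 2450 CPM in the 8 distal libraries (SD, n = 8) and 17.7 ± 25.7 CPM in the 12 others (SD, n = 12). Epidermis was in all 20 libraries, since Krt5, a basal keratin, lay between 2412 and 3813 CPM in distal and between 1239 and 3674 CPM in the other libraries. In the distal comparison below, 9 of 11 tested epidermal genes were called higher, against 24.4% of all genes tested. Their median log2 difference was 0.39. The 6 measured keratins of the inner root sheath, a layer of the hair follicle that nails lack, summed to 0.926 to 5.72 CPM in distal and 0.317 to 1.13 CPM in the other libraries. One library stood apart: E17 forelimb digit 2 distal held 59.6% of all Krtap counts outside Krtap13, and each test was repeated without it.

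All 38 Krtap genes had counts in a distal library, and 35 reached 1 CPM in at least 1 library. From protein composition, 11 were classed as high glycine-tyrosine (glycine plus tyrosine 47.5% to 69.2% of residues), 11 as ultrahigh sulphur (cysteine 30.4% to 38.8%) and the remaining 16 as high sulphur (cysteine 4.0% to 29.8%). Krtap7-1 fell in the remaining class at 29.9% glycine plus tyrosine, under the limit of 35%, although its human relative is counted with the glycine-tyrosine genes. All 38 have a single exon, with 19 on chromosome 16, 18 on chromosome 11 and 1, Krtap10-10, on chromosome 10.

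Close paralogs may share reads. No 50-base stretch of 12 of the genes recurs in another annotated gene, among them Krtap7-1, Krtap8-1, Krtap11-1 and Krtap13-1, whereas in 13 genes over 10% of such stretches do. The highest shares were 81.3% in Krtap4-13, 44.1% in Krtap10-10 and 43.8% in Krtap2-4. Krtap3-3, at 41.3%, Krtap3-2, at 28.9%, and Krtap3-1, at 8.8%, overlap with each other, and Krtap6-1 and Krtap6-5, at 28.3% and 19.0%, overlap with each other and with 1110025L11Rik, Gm10228 and Gm10229, so the level of each single gene of these groups is uncertain. The library kit is not marked as strand-specific, so antisense transcripts cannot be separated.

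The 250 bases before the start of 4 Krtap genes are shown because these genes, from both main clusters and with different compositions, were all higher in distal phalanges, Krtap13 by far the least. Capitals mark the letters TATAAA, the core of a TATA box. The sequences are RefSeq's, build GRCm38.p6, 5′ to 3′ on the gene's strand: Krtap8-1 from chr16:89487953-89488202 (minus strand), Krtap6-1 from chr16:89031449-89031698 (plus strand), Krtap3-1 from chr11:99566631-99566880 (minus strand) and Krtap13 from chr16:88751629-88751878 (minus strand).
Krtap8-1: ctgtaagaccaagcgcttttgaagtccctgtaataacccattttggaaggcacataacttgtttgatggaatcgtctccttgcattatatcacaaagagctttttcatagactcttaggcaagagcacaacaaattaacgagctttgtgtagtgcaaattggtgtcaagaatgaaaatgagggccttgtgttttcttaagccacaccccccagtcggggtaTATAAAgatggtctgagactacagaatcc
Krtap6-1: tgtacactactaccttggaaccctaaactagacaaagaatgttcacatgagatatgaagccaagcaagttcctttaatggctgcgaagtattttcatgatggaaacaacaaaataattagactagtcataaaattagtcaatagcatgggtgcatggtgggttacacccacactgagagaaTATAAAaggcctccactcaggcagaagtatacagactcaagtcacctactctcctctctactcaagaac
Krtap3-1: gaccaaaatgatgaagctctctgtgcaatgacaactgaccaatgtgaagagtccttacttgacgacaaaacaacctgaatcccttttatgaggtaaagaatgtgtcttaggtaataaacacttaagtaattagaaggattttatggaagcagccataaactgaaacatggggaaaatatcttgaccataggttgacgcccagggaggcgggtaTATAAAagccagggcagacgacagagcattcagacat
Krtap13: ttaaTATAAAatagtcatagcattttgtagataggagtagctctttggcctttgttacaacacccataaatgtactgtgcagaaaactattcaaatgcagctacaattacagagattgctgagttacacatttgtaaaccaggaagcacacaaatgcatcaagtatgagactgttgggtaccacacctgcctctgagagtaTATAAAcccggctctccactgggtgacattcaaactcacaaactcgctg

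Of the 38 genes, 34 had a promoter sequence of 300 bases, 250 before and 50 after the annotated start. On either strand, TATAAA occurred in 31 of the 34 (91.2%), against 13.6% of all 32851 promoters. Between 40 and 20 bases before the start on the gene's own strand, it occurred in 22 of the 34 (64.7%), against 2.0% of all. CTTTGA, the core bound by TCF/LEF factors of Wnt signalling, occurred in 13 of the 34 (38.2%), against 16% of all. CAATAAA, a sequence bound by Hox13 proteins, occurred in 0 of the 34, against 4.6% of all, and TCGTAAA, another such sequence, in 1 (2.9%), against 0.6% of all. These shares describe letters in the window, many of the promoters are related by gene duplication, and binding was not measured.

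The first comparison set the distal phalanges, which carry the nail field, against the middle and proximal phalanges. Transcripts of the Krtap genes other than Krtap13 were almost wholly distal, while Krtap13 had 351855 counts in distal and 282102 in other libraries. Without Krtap13, which is described on its own at the end, the 37 genes summed, in CPM over all gene counts without TMM scaling, to 263 and 948 in E17 hindlimb digits 1 and 2, and to 22.2 and 2957 in E17 forelimb digits 1 and 2. At E16 the same sums were 17 and 132 in hindlimb digits 1 and 2, and 3.51 and 571 in forelimb digits 1 and 2. The 12 other phalanges held 0.152 to 4.95 on the same scale. The distal library with the lowest sum, E16 forelimb digit 1, lay within the range of the 12 other phalanges of both stages. The remaining 7 distal libraries lay above that range. Within each stage every distal library lay above the others. Outside the distal phalanges the highest sums were 4.95 at E17 and 1.32 at E16, both in forelimb digit 1 proximal.

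**Figure D1:**
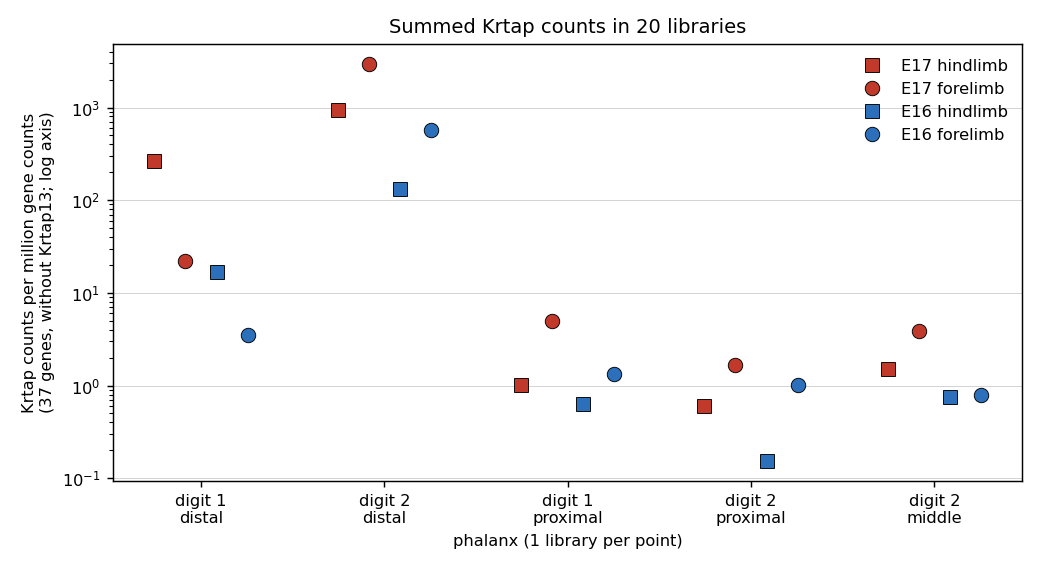
Summed CPM of 37 Krtap genes (Krtap13 left out), over all gene counts without TMM scaling, on a log axis, by phalanx, with 1 library per point, red for E17 and blue for E16, squares for hindlimb and circles for forelimb. The 4 libraries of digit 2 distal lie between 132 and 2957, while the 12 proximal and middle libraries lie between 0.152 and 4.95.

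No count was found outside the distal phalanges for 25 of the 38 genes. Set against a floor of 3 counts summed over the 12 other libraries, their mean distal CPM was at least 5970-fold higher for Krtap6-1, at least 5750-fold for Krtap21-1 and at least 7442-fold for Krtap11-1. Krtap3-2 and Krtap3-3, matrix proteins of the high sulphur class, had the most counts outside the distal phalanges after Krtap13, 614 and 591 in all 12 libraries together. Of the 614 counts of Krtap3-2, 285 came from the E17 forelimb digit 1 proximal library. Krtap10-10 alone among the 38 had a higher mean outside the distal phalanges, with 0.0398 ± 0.0857 CPM in distal (SD, n = 8) and 0.0455 ± 0.0894 CPM in other libraries (SD, n = 12), on 25 and 46 counts.

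Only 8 of the 38 genes reached 1 CPM in at least 4 libraries and were tested: Krtap3-1, Krtap3-2, Krtap3-3, Krtap6-5, Krtap7-1, Krtap8-1, Krtap11-1 and Krtap13. All 8 were called higher in distal phalanges at an adjusted p under 0.05 (edgeR quasi-likelihood test, all 20 libraries), where 24.4% of the 14872 genes tested were called higher and 48.5% were called in either direction. Apart from Krtap13 these genes passed the filter through their distal libraries and so had to differ, and the count is given as a description. Krtap8-1 differed by 13.70 ± 1.28 on the log2 scale (SE, adjusted p = 2.47e-06) and Krtap3-2 by 5.07 ± 0.44 (adjusted p = 3.67e-08). At E17 alone 5 of 6 tested genes were called, and 5150 of all 14380 genes. At E16 alone 2 of 2 were called, and 4467 of all 14274 genes. A filter of 1 CPM in 2 libraries was chosen after the data were seen. With it 19 of 20 were called, and 7359 of all 15370 genes.

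Among the distal libraries, levels per kilobase of transcript allow genes to be compared. Averaged over the 8 distal libraries, Krtap13 was highest at 589 CPM per kilobase, followed by Krtap7-1 at 229, Krtap8-1 at 183, Krtap3-1 at 182 and Krtap3-3 at 151. The order rests on forelimb digit 2, since Krtap3-1, the shorter transcript, was above Krtap7-1 in all 4 hindlimb distal libraries. No ultrahigh sulphur gene exceeded 3.74 CPM per kilobase, the value of Krtap17-1. The lowest values were 0.0187 for Krtap4-13 and 0.0305 for Krtap10-10.

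The neighbouring Krtap3 genes of chromosome 11 followed Krtap13 and Krtap7-1 in mean level among the high sulphur genes. Krtap3-1 was at 71.6 and 244 CPM in E17 hindlimb digits 1 and 2 and 3.16 and 432 CPM in E17 forelimb digits 1 and 2, against 3.93 and 31.4 CPM in E16 hindlimb and 0.0678 and 95.9 CPM in E16 forelimb digits 1 and 2. Krtap3-3 was at 70.4 and 226 CPM in E17 hindlimb and 10.5 and 418 CPM in E17 forelimb digits 1 and 2, against 6.09 and 33.9 CPM in E16 hindlimb and 1.67 and 122 CPM in E16 forelimb digits 1 and 2. Krtap3-2 was at 9.45 and 47.3 CPM in E17 hindlimb and 5.67 and 131 CPM in E17 forelimb digits 1 and 2, against 1.72 and 9.16 CPM in E16 hindlimb and 0.909 and 28.8 CPM in E16 forelimb digits 1 and 2. In each stage all 3 were highest in forelimb digit 2, then hindlimb digit 2, then hindlimb digit 1, and lowest in forelimb digit 1. The ranges of the E17 and E16 libraries overlap, but each E17 library lay above its E16 match.

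Krtap11-1, Krtap13-1 and Krtap1-5 are further matrix proteins of the class and were less abundant. Krtap11-1 was at 3.8 and 27.7 CPM in E17 hindlimb and 0 and 133 CPM in E17 forelimb digits 1 and 2, against 0 and 1.16 CPM in E16 hindlimb and 0 and 24.5 CPM in E16 forelimb digits 1 and 2. Krtap13-1 was at 0.887 and 12.6 CPM in E17 hindlimb and 0.0418 and 80.2 CPM in E17 forelimb digits 1 and 2, against 0 and 0.344 CPM in E16 hindlimb and 0 and 16.7 CPM in E16 forelimb digits 1 and 2. Krtap1-5 was at 0.104 and 6.56 CPM in E17 hindlimb and 0 and 120 CPM in E17 forelimb digits 1 and 2, against 0 and 0.316 CPM in E16 hindlimb and 0 and 8.22 CPM in E16 forelimb digits 1 and 2. At E16 these 3 genes had counts in digit 2 alone, and their lowest E17 library was again forelimb digit 1.

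Krtap7-1, near the glycine-tyrosine genes on chromosome 16, had the highest level in any library after Krtap13. It was at 66.8 and 216 CPM in E17 hindlimb and 3.09 and 669 CPM in E17 forelimb digits 1 and 2, against 3.1 and 28.5 CPM in E16 hindlimb and 0.312 and 151 CPM in E16 forelimb digits 1 and 2. Krtap8-1, a glycine-tyrosine protein, was at 51 and 162 CPM in E17 hindlimb and 2.02 and 519 CPM in E17 forelimb digits 1 and 2, against 1.33 and 20.8 CPM in E16 hindlimb and 0.108 and 83.8 CPM in E16 forelimb digits 1 and 2. Both followed the order of the Krtap3 genes within each stage.

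Krtap6-1, Krtap21-1 and Krtap6-2 are glycine-tyrosine genes of the same cluster. Krtap6-1 was at 0.587 and 10.5 CPM in E17 hindlimb and 0 and 133 CPM in E17 forelimb digits 1 and 2, against 0 and 0.55 CPM in E16 hindlimb and 0 and 8.31 CPM in E16 forelimb digits 1 and 2. Krtap21-1 was at 0.104 and 9.71 CPM in E17 hindlimb and 0 and 124 CPM in E17 forelimb digits 1 and 2, against 0 and 0.784 CPM in E16 hindlimb and 0 and 12 CPM in E16 forelimb digits 1 and 2. Krtap6-2 was at 0.104 and 7.87 CPM in E17 hindlimb and 0.167 and 89.7 CPM in E17 forelimb digits 1 and 2, against 0.0392 and 0.812 CPM in E16 hindlimb and 0 and 5.82 CPM in E16 forelimb digits 1 and 2. Krtap6-2 was the exception in that its E17 hindlimb digit 1 level, on 8 counts, lay below that of E17 forelimb digit 1, on 12 counts.

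The ultrahigh sulphur genes, rich in cysteine, were low in every library but E17 forelimb digit 2. Krtap17-1 led them at 17.8 CPM there, followed by Krtap4-1 at 16.9, Krtap4-6 at 14.4 and Krtap1-3 at 14.2 CPM. In E16 forelimb digit 2 the same 4 genes were at 1.12, 0.449, 0.291 and 0.304 CPM. In digit 1 Krtap17-1 and Krtap10-10 had counts, and the other 9 had none in any of its 4 distal libraries.

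**Figure D2:**
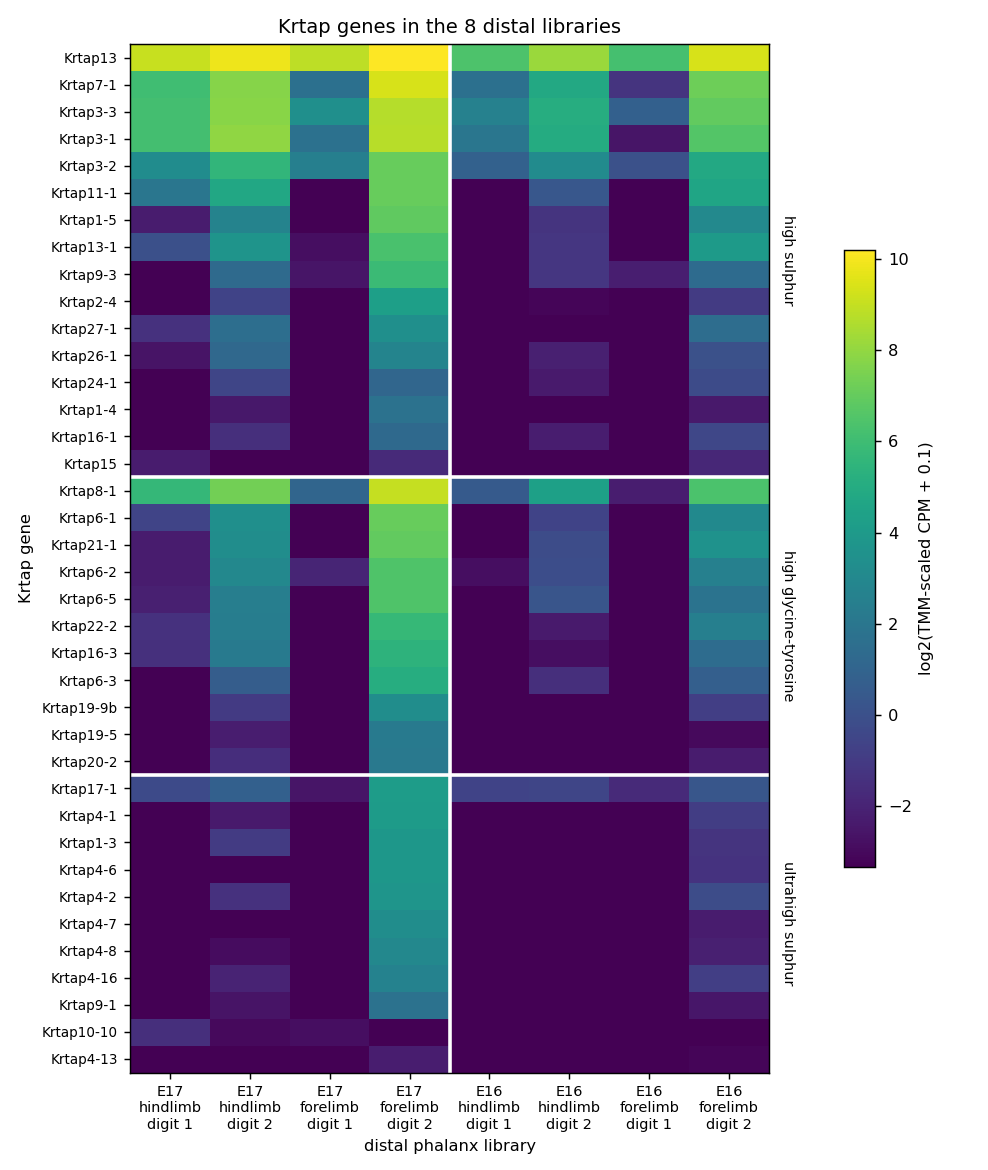
Levels of the 38 Krtap genes, as log2 of TMM-scaled CPM plus 0.1, in the 8 distal libraries, E17 in the left block and E16 in the right block, with genes grouped by protein composition and sorted by mean level. The forelimb digit 2 column is the brightest in each block for 37 of the 38 genes, and the forelimb digit 1 columns hold counts for few genes besides Krtap13, the Krtap3 genes, Krtap7-1 and Krtap8-1.

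Of the 38 genes, 37 had their highest level of all 20 libraries in E17 forelimb digit 2 distal, and 37 were highest in forelimb digit 2 among the E16 distal libraries. Krtap10-10 was the exception in both, with its highest level in E17 hindlimb digit 1 proximal and no count in the E16 distal libraries. The full order of forelimb digit 2, hindlimb digit 2, hindlimb digit 1 and forelimb digit 1 was scored for 31 genes at E17 and 21 at E16. These numbers include genes at 0 in both digit 1 libraries of a stage, for which the last step was not seen. Krtap6-3 and Krtap24-1, with 0 counts in all 4 distal digit 1 libraries, are examples. Ties at 0 were more frequent at E16. Leaving out Krtap13, 34 genes reached 1 CPM in forelimb digit 2 at E17, 19 in hindlimb digit 2, 6 in hindlimb digit 1 and 5 in forelimb digit 1. At E16 the numbers were 18, 7, 5 and 1 in the same order.

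The stage comparison asked what differed in distal phalanges between E17 and E16. All 8 tested Krtap genes were higher at E17 (edgeR quasi-likelihood test on the 8 distal libraries, terms for stage, limb and digit), where 25.7% of the 14047 genes tested were called higher and 51.3% in either direction. Krtap11-1 passed the filter through E17 and digit 2 libraries alone and Krtap6-5 through digit 2 libraries alone. The others also reached 1 CPM in E16 hindlimb digit 1. The count is given as a description. Krtap6-5, a glycine-tyrosine gene, differed by 3.72 ± 0.69 on the log2 scale (SE, adjusted p = 0.00153), Krtap8-1 by 3.63 ± 1.01 (adjusted p = 0.0128) and Krtap11-1 by 3.5 ± 1.19 (adjusted p = 0.0317). Krtap3-2 differed by 2.38 ± 0.40 (adjusted p = 0.000808), and Krtap13 had the smallest difference, 1.93 ± 0.33 (adjusted p = 0.000887). The median over the 8 was 3.13, against 0 over all genes tested.

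With a limb by digit term, added after the data were seen, the standard errors were smaller: Krtap8-1 differed by 3.48 ± 0.36 (adjusted p = 4.98e-05), Krtap7-1 by 3.11 ± 0.30 (adjusted p = 3.78e-05), Krtap3-1 by 3.19 ± 0.32 (adjusted p = 4.1e-05) and Krtap3-3 by 2.66 ± 0.23 (adjusted p = 1.93e-05). Without that term the count of 8 rested on single libraries, with 3 of 7 tested genes called when E17 forelimb digit 2 was left out, 5 of 7 without E16 hindlimb digit 2 and 5 of 8 without E16 hindlimb digit 1. With the term, 8 of 8 were called, where 25.8% of all genes tested were higher and 51.4% were called, and 7 of 7 or 8 of 8 whichever library was left out. In bulk tissue, a greater number of hardening cells and more RNA per cell cannot be told apart. For the interactions of stage, 0 of the 8 genes passed for stage by limb and 0 for stage by digit by edgeR, where 0% of all genes tested passed in either, with 0 and 1 (Krtap13) of the 8 at an unadjusted p under 0.05. DESeq2 also called 0 of the 8 in either, and 201 and 39 of all 14047 genes. The median edgeR estimates over the 8 were 1.73 for stage by limb and 1.91 for stage by digit on the log2 scale, with 1 library per group.

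By protein composition, the stage ratios differed in forelimb digit 2, and the order in hindlimb digit 2 differed only through 1 ultrahigh sulphur gene. In forelimb digit 2, 28 genes besides Krtap13 had at least 20 counts in both libraries, and all 28 were higher at E17. The ratio of E17 to E16 CPM had a median of 4.55 over 13 high sulphur genes, with a range of 2.86 to 48.5, of 16 over 9 glycine-tyrosine genes, with a range of 6.2 to 25.4, and of 27.1 over 6 ultrahigh sulphur genes, with a range of 13 to 49.5. The 15 hard keratins measured the same way had a median of 3.06 and a range of 0.945 to 5.95. In hindlimb digit 2 the median ratio was 7.67 over 8 high sulphur and 9.7 over 5 glycine-tyrosine genes, and the 1 ultrahigh sulphur gene with enough counts was at 2.75. That gene, Krtap17-1, held all 45 ultrahigh sulphur counts of the E16 library. The limit of 20 counts also left out genes with large ratios, such as Krtap16-3, with 485 counts at E17 and 3 at E16. These are ratios of single libraries with no test, and genes within a class share a cluster and sequence.

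**Figure D3:**
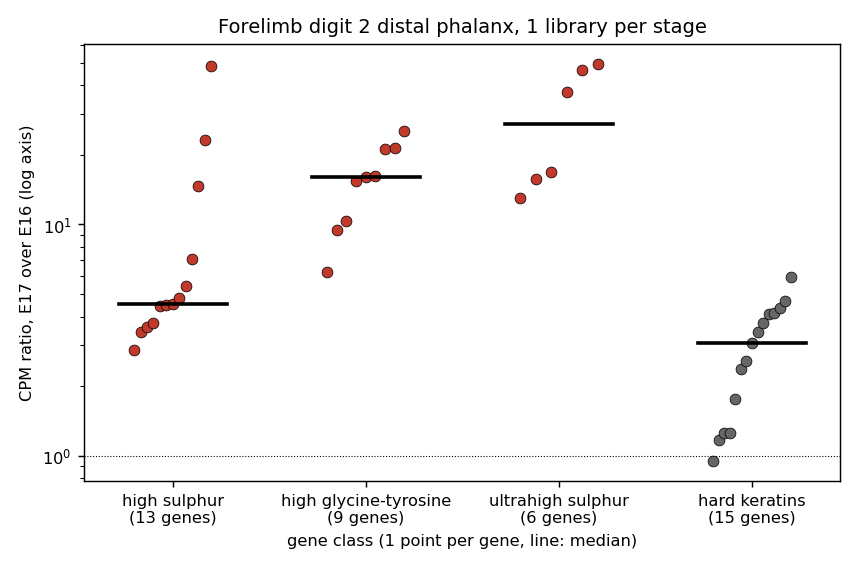
Ratio of E17 to E16 CPM in the forelimb digit 2 distal phalanx on a log axis, 1 point per gene, with a line at the median of each class and 1 library per stage. Medians are 4.55 for high sulphur, 16 for high glycine-tyrosine and 27.1 for ultrahigh sulphur Krtap genes, and 3.06 for hard keratins.

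The make-up of the Krtap transcripts, Krtap13 left out, also differed between stages. In forelimb digit 2 the glycine-tyrosine genes made 33.5% of the counts at E17 and 21.2% at E16, and the ultrahigh sulphur genes made 3.14% at E17 and 0.643% at E16. In hindlimb digit 2 the glycine-tyrosine share was 20.8% at E17 and 18.7% at E16, and the ultrahigh sulphur share was 0.276% at E17 and 0.474% at E16. The high sulphur share was therefore lowest in E17 forelimb digit 2, at 63.4%, and lay between 78.1% and 80.8% in the other 3 digit 2 libraries.

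Krtap counts were also set against those of the hard keratins. There were 0.0384 and 0.0747 Krtap counts (Krtap13 left out) per hard keratin count in E17 hindlimb digits 1 and 2 and 0.0119 and 0.214 in E17 forelimb digits 1 and 2, against 0.00462 and 0.0159 in E16 hindlimb and 0.00477 and 0.0527 in E16 forelimb digits 1 and 2. Each E17 library was above its E16 match, and each digit 1 library was below digit 2 of its limb and stage. E16 forelimb digit 2, at 0.0527, lay between E17 hindlimb digit 1 and E17 hindlimb digit 2. Gene by gene, 25 Krtap genes had a median CPM ratio of 1.26 for E17 hindlimb digit 2 over E16 forelimb digit 2, with a range of 0.353 to 2.54 and 15 of 25 above 1.

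The limb and digit comparisons asked whether distal Krtap levels differ between hindlimb and forelimb and between digit 1 and digit 2. The limb difference depended on the digit: estimates for all 8 tested genes were above 0 for hindlimb over forelimb in digit 1 and below 0 in digit 2. That of Krtap13 changed sign in digit 1 without E17 hindlimb digit 1 (-0.375) or E16 forelimb digit 1, and in digit 2 without E16 forelimb digit 2 (0.016). Of the 8 tested genes, 6 passed the test of the difference between these limb effects (limb by digit term, edgeR quasi-likelihood test), where 0.413% of all genes tested passed and 0.356% passed in this direction. The limb difference of Krtap8-1 was 6.13 ± 0.72 larger on the log2 scale in digit 1 than in digit 2 (SE, adjusted p = 0.00368), that of Krtap7-1 6.12 ± 0.60 (adjusted p = 0.00147) and that of Krtap3-1 5.69 ± 0.63 (adjusted p = 0.00304). Krtap3-3 gave 3.83 ± 0.44 (adjusted p = 0.00322) and Krtap3-2 gave 2.36 ± 0.21 (adjusted p = 0.00121). Krtap11-1 gave 13.32 ± 1.89 (adjusted p = 0.0199), a value with no fixed size because both forelimb digit 1 libraries had 0 counts.

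Krtap6-5 and Krtap13 did not pass, at 8.37 ± 2.47 (adjusted p = 0.527) and 1.11 ± 0.50 (adjusted p = 0.837). The Krtap6-5 value also has no fixed size, because both forelimb digit 1 libraries had 0 counts. The median over the 8 genes was 5.90 on the log2 scale, against 0 over all genes tested. DESeq2 called 5 of the 8, and 127 of all 14047 genes. The edgeR fit of all 20 libraries together called 4 of the 8, and 49 of all 14872 genes. Krtap11-1 did not pass in that edgeR fit (adjusted p = 0.0536). Between 5 and 6 genes were called whichever library was left out. Krtap11-1 did not pass without E17 hindlimb digit 1 (adjusted p = 1), E17 forelimb digit 1 (adjusted p = 0.164) or E16 hindlimb digit 2 (adjusted p = 0.0732), nor with DESeq2 (adjusted p = 0.363).

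Read within each digit, from fits added after the data were seen, 6 of the 8 genes were higher in hindlimb than in forelimb in digit 1, where 3.01% of all genes tested were higher and 6.49% were called in either direction. Krtap3-1 differed by 4.39 ± 0.50 (adjusted p = 0.00135), Krtap8-1 by 4.25 ± 0.59 (adjusted p = 0.00357), Krtap7-1 by 4.03 ± 0.48 (adjusted p = 0.00168), Krtap3-3 by 2.40 ± 0.33 (adjusted p = 0.00352) and Krtap3-2 by 0.81 ± 0.15 (adjusted p = 0.0147). The sixth was Krtap11-1, whose 291 digit 1 counts all came from E17 hindlimb, so its estimate of 9.99 has no fixed size. That estimate lay between 2.48 and 10.9 as single libraries were left out. Krtap13 was at 0.23 ± 0.35 (adjusted p = 0.757) and Krtap6-5, with 10 counts in the 4 digit 1 libraries, at 5.38 ± 2.77 (adjusted p = 0.299). Those 10 counts all came from E17 hindlimb, so the estimate of Krtap6-5 has no fixed size either.

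In digit 2, 4 of the 8 genes were lower in hindlimb than in forelimb, where 0.491% of all genes tested were lower and 0.74% were called in either direction: Krtap11-1 by -3.33 ± 0.59 (adjusted p = 0.0451), Krtap6-5 by -2.99 ± 0.48 (adjusted p = 0.0284), Krtap7-1 by -2.09 ± 0.37 (adjusted p = 0.0367) and Krtap3-2 by -1.56 ± 0.14 (adjusted p = 0.00118). The other 4 lay between -1.88 and -0.88. This count moved with single libraries, to 1 of 7 without E16 forelimb digit 2, E16 hindlimb digit 2 or E17 hindlimb digit 2 and to 7 without E16 hindlimb digit 1, E17 hindlimb digit 1 or E17 forelimb digit 2, and it was 2 with DESeq2 and 1 when all 20 libraries were fitted together. Krtap6-5 was not tested when a digit 2 library was left out. DESeq2 called 575 of all 14047 genes, and the fit of all 20 libraries 158 of 14872. Over single libraries of digit 2, the ratio of hindlimb to forelimb CPM was below 1 for all 26 genes with enough counts at E17, with a median of 0.0963, and for all 14 at E16, with a median of 0.164. By composition, the E17 median was 0.273 over 13 high sulphur, 0.0787 over 10 glycine-tyrosine and 0.0288 over 3 ultrahigh sulphur genes. At E16 it was 0.161 over 8 high sulphur and 0.139 over 5 glycine-tyrosine genes, and the 1 ultrahigh sulphur gene was at 0.551. The order of the classes differed only through that gene, Krtap17-1, which held all 45 ultrahigh sulphur counts of E16 hindlimb digit 2.

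**Figure D4:**
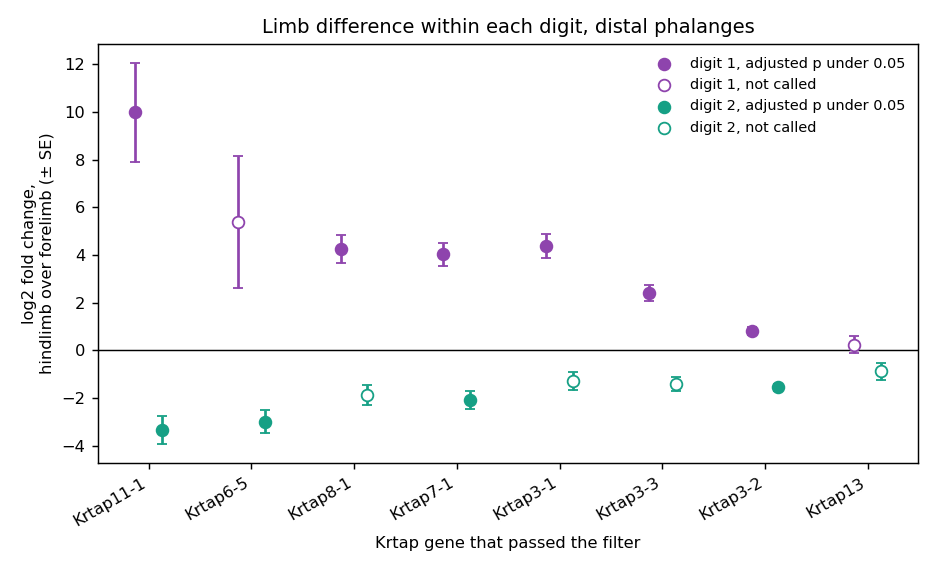
Log2 fold change of hindlimb over forelimb in distal phalanges for the 8 tested Krtap genes, read within digit 1 (purple) and within digit 2 (green), with bars of 1 standard error and filled points for an adjusted p under 0.05. All 8 estimates are above 0 in digit 1, from 0.23 to 9.99, and below 0 in digit 2, from -3.33 to -0.88. The 9.99 belongs to Krtap11-1, which had counts in 1 of the 4 digit 1 libraries, so it has no fixed size. The same holds for Krtap6-5, at 5.38 in digit 1.

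Digit 1 was below digit 2 for all 8 genes within the forelimb, where 1.89% of all genes tested were lower and 3.23% were called in either direction. Krtap6-5 passed the filter through digit 2 libraries alone and Krtap11-1 had 0 counts in both forelimb digit 1 libraries, so both had to differ and the count is a description. Krtap8-1 was at -8.56 ± 0.63 (adjusted p = 3.99e-05), Krtap7-1 at -8.34 ± 0.53 (adjusted p = 1.48e-05), Krtap3-1 at -7.93 ± 0.55 (adjusted p = 2.83e-05), Krtap3-2 at -4.71 ± 0.16 (adjusted p = 5.06e-07) and Krtap13 at -2.33 ± 0.37 (adjusted p = 0.00727). Within the hindlimb 3 passed, Krtap6-5, which had to differ, Krtap3-2 and Krtap3-3, at -6.08 ± 0.77, -2.35 ± 0.15 and -1.98 ± 0.30 (adjusted p = 0.0208, 0.000203 and 0.035), where 0.164% of all genes tested were lower and 0.199% were called in either direction. The other 5 were between -2.91 and -1.21 there. The hindlimb count was 1 of 7 without E16 hindlimb digit 2 or E17 hindlimb digit 2, 8 of 8 without E17 hindlimb digit 1, 7 without E17 forelimb digit 1, 6 without E16 forelimb digit 2 and 5 without E16 hindlimb digit 1. Without a digit 2 library Krtap6-5 did not reach the filter and was not tested.

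Fitted without the interaction, as single effects over the 8 distal libraries, 4 of the 8 genes were lower in digit 1 (Krtap13, Krtap3-2, Krtap3-3 and Krtap6-5), where 1.58% of all genes tested were lower and 2.65% were called in either direction. Krtap6-5 reached 1 CPM in the 4 digit 2 libraries alone, so the filter fixed its direction here and in both comparisons of digit 1 with digit 2 within a limb. It was at -8.85 ± 0.87 (adjusted p = 0.00268), Krtap3-3 at -3.79 ± 0.76 (adjusted p = 0.0301), Krtap3-2 at -3.50 ± 0.43 (adjusted p = 0.00659) and Krtap13 at -1.76 ± 0.33 (adjusted p = 0.0232). The count was 2 without E16 hindlimb digit 1, E16 forelimb digit 1, E17 forelimb digit 1 or E17 forelimb digit 2, 8 without E17 hindlimb digit 1, and 8 with DESeq2. DESeq2 called 853 of all 14047 genes there. For limb, 1 of the 8 was lower in hindlimb, Krtap6-5, at -2.57 ± 0.69 (adjusted p = 0.0428), where 6.1% of all genes tested were lower and 11.1% were called. Krtap6-5 was at 0.13 and 5.45 CPM in E17 hindlimb and 0 and 88.1 CPM in E17 forelimb digits 1 and 2, against 0 and 1.1 CPM in E16 hindlimb and 0 and 3.47 CPM in E16 forelimb digits 1 and 2. It was not called with DESeq2 (-0.54, adjusted p = 0.881), and the count was 0 without any 1 of the 4 E16 libraries, E17 forelimb digit 2 or E17 hindlimb digit 2, and 2 without E17 hindlimb digit 1. Leaving out any digit 2 library took Krtap6-5 out of the test through the filter. In those runs it could not be called, for limb or for digit.

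Partner genes of the hardening cell were listed and tested in the same fits. For limb by digit, 0.356% of all genes tested passed in the direction of the Krtap genes and 0.413% in either direction. In that direction 6 of 8 tested type I and 6 of 6 tested type II hard keratins passed. So did 1 of 13 transcription factors of the hair and nail matrix and 2 of 9 tested crosslinking and other hard keratin cell proteins. Of the epidermal genes 1 of 11 tested passed, and of the hair follicle signals 0 of 4 tested. Krt84, the hard keratin most abundant in these libraries, was at 3744 and 7002 CPM in E17 hindlimb and 1198 and 6557 CPM in E17 forelimb digits 1 and 2, and at 1912 and 4340 CPM in E16 hindlimb and 413 and 5239 CPM in E16 forelimb digits 1 and 2. Its limb difference in digit 2 was -0.11 ± 0.22 (adjusted p = 0.84), whereas that of Krt86, a hard keratin of the hair cortex, was -3.56 ± 0.26 (adjusted p = 0.00051). In E17 against E16 with the limb by digit term, Krt84 differed by 0.89 ± 0.16 (adjusted p = 0.00116) and Krt86 by 3.15 ± 0.23 (adjusted p = 1.04e-05). Hoxc13, a transcription factor that activates hard keratin genes, was at -0.35 ± 0.07 in the same stage comparison (adjusted p = 0.00175). The 6 measured inner root sheath keratins summed to 0.926 to 3.26 CPM in E17 distal and 1.87 to 5.72 CPM in E16 distal libraries, and epidermal genes to 39502 to 67036 CPM in E17 distal and 17585 to 23186 CPM in E16 distal libraries; the part of either in the Krtap differences was not tested.

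Krtap13 stood apart from the other 37 genes. It was present in every library and made 96.5% to 99.9% of Krtap counts in each library outside the distal phalanges. In distal libraries it was at 541 and 921 CPM in E17 hindlimb and 454 and 1176 CPM in E17 forelimb digits 1 and 2, against 84.4 and 288 CPM in E16 hindlimb and 74.5 and 667 CPM in E16 forelimb digits 1 and 2. It averaged 526 ± 389 CPM in distal (SD, n = 8) and 293 ± 278 CPM in other libraries (SD, n = 12), which overlap, and its distal difference was 1.19 ± 0.24 on the log2 scale (SE, edgeR adjusted p = 0.000404). At E17 alone that difference was 0.53 (adjusted p = 0.0751) and did not pass.

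Outside the distal phalanges Krtap13 lay between 220 and 807 CPM at E17, with a median of 518, and between 31.5 and 107 CPM at E16, with a median of 60.2. The stages did not overlap there, and E17 was higher in 6 of 6 matched pairs. The highest of these libraries at both stages was hindlimb digit 2 proximal, at 807 CPM at E17 and 107 CPM at E16, and the lowest were forelimb digit 1 proximal at E17, at 220 CPM, and hindlimb digit 1 proximal at E16, at 31.5 CPM.

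The counts of Krtap13 may hold reads of 3 similar genes, since 24.9% of its 50-base stretches recur in 2310034C09Rik, 2310057N15Rik or Gm5965. 2310034C09Rik was at 572 and 924 CPM in E17 hindlimb and 444 and 1089 CPM in E17 forelimb distal digits 1 and 2, against 133 and 462 CPM in E16 hindlimb and 118 and 802 CPM in E16 forelimb distal digits 1 and 2. Outside the distal phalanges it averaged 524 ± 197 CPM at E17 and 126 ± 52 CPM at E16 (SD, n = 6 each). 2310057N15Rik and Gm5965 were lower, averaging 138 ± 160 and 118 ± 123 CPM in distal (SD, n = 8) and 61.3 ± 68.1 and 54.4 ± 55.2 CPM in other libraries (SD, n = 12). How the reads divide among them was not tested.

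**Figure D5:**
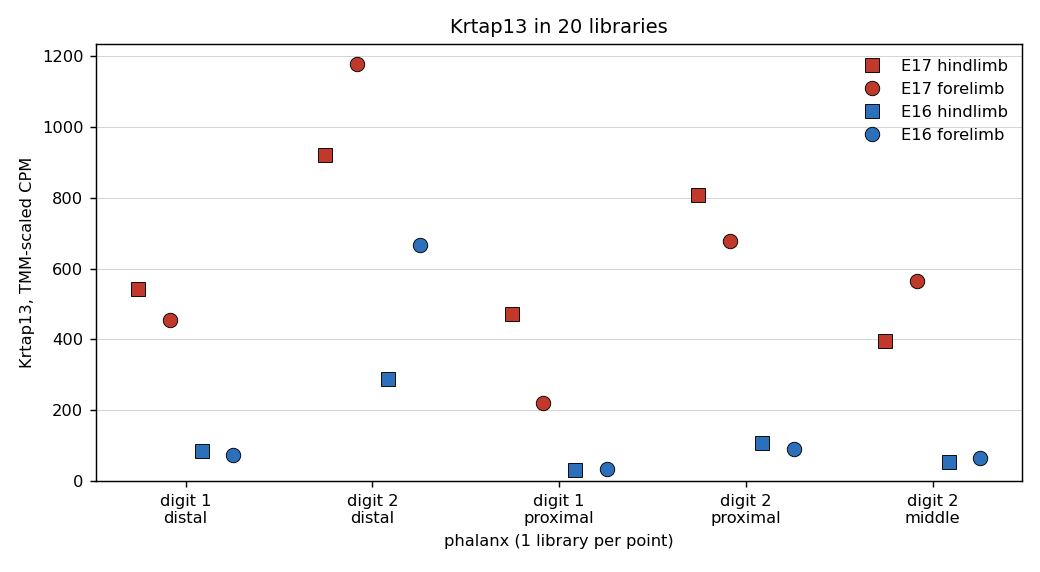
Krtap13 in TMM-scaled CPM on a linear axis from 0, by phalanx, with 1 library per point, red for E17 and blue for E16, squares for hindlimb and circles for forelimb. In proximal and middle phalanges the 6 E17 libraries lie between 220 and 807 CPM and the 6 E16 libraries between 31.5 and 107 CPM.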

How the data were processed

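RNA-seq of 20 pooled phalanx libraries was deposited by the authors as 2 tables of raw read counts per gene, 1 per stage. The submitters' processing notes name HISAT2 2.2.1, StringTie 2.1.7 and the build GRCm39; the counting step and its strand setting are not given in the sources used here. Rows of one symbol were summed and the tables joined by symbol, and 0 columns of sample values were left unused. Groups came from the sample labels, with 1 library per group, so SDs describe spread over different phalanges, limbs or stages.

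Genes at 1 CPM in at least 4 libraries were tested with edgeR 4.0.16 in R 4.3.3 (quasi-likelihood F test, TMM factors, Benjamini-Hochberg adjustment over all genes tested, threshold 0.05). Standard errors are the log2 fold change divided by the square root of F. Distal was set against other phalanges in all 20 libraries with terms for stage and limb, and stage, limb and digit in the 8 distal libraries, with each interaction added in a fit of its own. Within-digit and within-limb effects and the filter of 1 CPM in 2 libraries were added after the data were seen. Alternatives were DESeq2 1.42.0, RLE factors, no filter, other library sets and leaving out each library. The test script was checked on simulated data.

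Protein composition was computed from GENCODE coding sequences, since RefSeq proteins were not used here, and promoters are RefSeq's on GRCm38.p6, a build other than that of the counts. Intervals and floors cover counting error only; a floor is 3 counts summed over the group. Genes named are the most abundant distal members, the members tested, and exceptions singled out after their values were seen. Members and gene lists were chosen with earlier results of these data known.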

Additional observations from a re-analysis of the deposited data

Results flagged for a closer look

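For 6 Krtap genes the difference between hindlimb and forelimb in distal phalanges was not the same in digit 1 and digit 2, by the test of the limb by digit term itself. The log2 difference between the digit 1 and digit 2 limb effects was 13.32 for Krtap11-1, 6.13 for Krtap8-1, 6.12 for Krtap7-1, 5.69 for Krtap3-1, 3.83 for Krtap3-3 and 2.36 for Krtap3-2. Each combination of stage, limb and digit had 1 library, and the value for Krtap11-1 has no fixed size because forelimb digit 1 held 0 counts at both stages.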

How the results depend on the processing

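Counts of Krtap genes called depended most on the filter, because few genes reach 4 libraries. Without a filter, 20 of all 38 genes were called for distal phalanges, 31 for stage, 15 for limb and 29 for digit. Limb by digit gave 12 and stage with the limb by digit term gave 32. Limb gave 22 in digit 2 and 7 in digit 1, and digit gave 15 in the hindlimb and 35 in the forelimb. Over all genes, 7463 of 23988 were then called for distal and, of 23342, 6828 for stage, 1057 for limb and 335 for digit. Of the same 23342, 70 were called for limb by digit and 6963 for stage with that term. Limb called 139 in digit 2 and 757 in digit 1, and digit called 58 in the hindlimb and 495 in the forelimb. Krtap4-1, Krtap4-6 and Krtap6-3 are among the added genes with 0 counts in distal digit 1, so their direction for digit was fixed. With 1 CPM in 2 libraries the same counts, of 20 genes, were 19, 18, 6, 14, 12, 19, 13, 7, 11 and 20. Over all genes, in the same order, 7359 of 15370 were called for distal. Of 14565 genes, the others called 7299, 1521, 380, 67, 7346, 125, 889, 44 and 477. With DESeq2, limb gave 0, digit 8, limb by digit 5 and limb in digit 2 gave 2. Of all 14047 genes, DESeq2 called 2412, 853, 127 and 575 in the same order. With all 20 libraries fitted together, limb gave 0, limb by digit 4 and limb in digit 2 gave 1. Of all 14872 genes, that fit called 1720, 49 and 158 in the same order. For distal phalanges, 5 were called in E17 libraries, with 5150 of all 14380 genes, and 2 in E16 libraries, with 4467 of all 14274. RLE factors and proximal phalanges as the only comparison moved no count by over 1.5 times. Leaving out 1 library gave 6 to 8 genes for distal, 3 to 8 for stage, 0 to 2 for limb, 2 to 8 for digit, 0 to 1 for stage by limb and for stage by digit, 5 to 6 for limb by digit, 7 to 8 for stage with the limb by digit term, 1 to 7 for limb in digit 2, 4 to 6 for limb in digit 1, 1 to 8 for digit in the hindlimb and 7 to 8 for digit in the forelimb. The estimate for Krtap13 changed sign when 1 library was left out, from -1.51 to 0.016 on the log2 scale for limb in digit 2 and from -0.375 to 0.738 for limb in digit 1. The cause was not tested. No paired analysis was possible because each group had 1 library and the labels give no replicate numbers to block on; the stage fit with the limb by digit term does match E17 to E16 libraries of the same limb and digit. Depth limits the digit 1 values, where many genes had under 10 counts.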

Other observations

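Krtap symbols listed in 1 table only were kept out of every comparison. Krtap4-9, listed at E17, had 384 counts in the forelimb digit 2 distal library and 3 in hindlimb digit 2 distal. Krtap12-1, also listed at E17, had 68 counts in hindlimb digit 2 proximal, 45 in forelimb digit 2 middle and at most 4 in any distal library. Krtap5-5, listed at E16, had 7 counts in hindlimb digit 1 proximal and 3 in hindlimb digit 2 proximal. 1110025L11Rik, which shares 50-base stretches with Krtap6-1 and Krtap6-5, had 730 and 4407 counts in E17 hindlimb and 0 and 17308 counts in E17 forelimb distal digits 1 and 2, against 0 and 86 counts in E16 hindlimb and 0 and 982 counts in E16 forelimb distal digits 1 and 2.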
